A study of Homo sapiens with 12 samples.

Results

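The genes described here make sterols and fatty acids. They cover the cholesterol pathway from acetyl-CoA to cholesterol, its SREBP control, and fatty acid synthesis, elongation, desaturation and storage as triglyceride. They were chosen by name from a list of 33 genes, and 32 of them had a row among the 13091 named genes of the table. ELOVL5 was not analysed here. The study raised the transcription factor ONECUT2 in gastric cancer cells, and ACSL5, which activates long-chain fatty acids, stands in its title. RNA was sequenced in MKN74 and AGS, established human gastric cancer lines, with 1 library in each of 4 groups: MKN74 with ONECUT2 overexpression, MKN74 control, AGS with ONECUT2 overexpression and AGS control. The RNA labels give overexpression by the sample name, and the sources used here do not say how ONECUT2 was introduced, for how long, or whether the cells were a clone or a pool. The 8 ChIP samples in the labels were not analysed here.

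Cells make cholesterol from acetyl-CoA through mevalonate, isoprenoids and squalene. Its genes are switched on by SREBP-2, and those of fatty acid synthesis mainly by SREBP-1. Both are held in the endoplasmic reticulum by INSIG proteins when sterols are plentiful, and SCAP carries them to the Golgi for activation when sterols are scarce. INSIG1 and most enzymes of the pathway are themselves SREBP targets, so their transcripts usually move together. Epithelial tumour cells commonly make their own fatty acids and cholesterol in this way.

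Levels are in CPM, a gene's reads scaled to the library total that the authors used. A change is given on the log2(CPM + 1) scale, as the overexpression library's value less that of the control library of that line, which understates the change of low genes. CPM takes no account of gene length, so levels of different genes are not compared. The listed rows held 36097456 to 38110453 reads per library, recovered from the values. The libraries are bulk RNA, in which fewer cells of a type and less RNA per cell cannot be told apart. With 1 library per group a change has no replicate check and no test. Intervals on a ratio of CPM are exact at 95% and cover counting error only. ONECUT2 had 57.6 CPM in MKN74 overexpression against 5.14 in its control, and 18.3 CPM in AGS overexpression against 4.39. All 4 epithelial markers (EPCAM, KRT8, KRT18, KRT19) had a row, with summed levels of 8153 and 13462 CPM in MKN74 overexpression and control and 4721 and 5413 CPM in AGS overexpression and control. Rows were listed for 1 of 4 leukocyte markers (CD68, 6.14 to 11.2 CPM), 1 of 4 fibroblast markers (COL1A1, 6.77 to 18.3 CPM) and 0 of 3 endothelial markers. The lower sums with overexpression came from KRT8 and KRT18 in both lines and from KRT19 in MKN74. EPCAM was higher with overexpression, at 673 against 457 CPM in MKN74 and 566 against 508 CPM in AGS, and KRT19 was higher in AGS, at 725 against 683 CPM. The part of these marker levels in the results was not tested.

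The cholesterol synthesis genes had mostly opposite changes in the lines. In MKN74, 15 of 17 had a change above 0, with a median of 0.18, whereas 46.8% of all 11914 genes tested were above 0 and their median was -0.020. In AGS, 14 of the same 17 had a change below 0, with a median of -0.35, whereas 50.3% of all 11675 genes tested were below 0 and their median was -0.0034. In all, 12 of 17 were higher in MKN74 overexpression and lower in AGS overexpression, a combination seen in 20.6% of the 10766 genes measured in both lines. The reverse combination was seen in 0 of the 17, in 4 of all 31 members measured in both lines, and in 22.8% of all genes. For each of the 17 the change in MKN74 was above that in AGS, and this was so for 51.7% of all genes. The median difference was 0.56 among the 17 and 0.018 among all genes. The lines share no library, but 4 libraries leave no residual degree of freedom, so the difference between the lines was not tested.

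**Figure D1:**
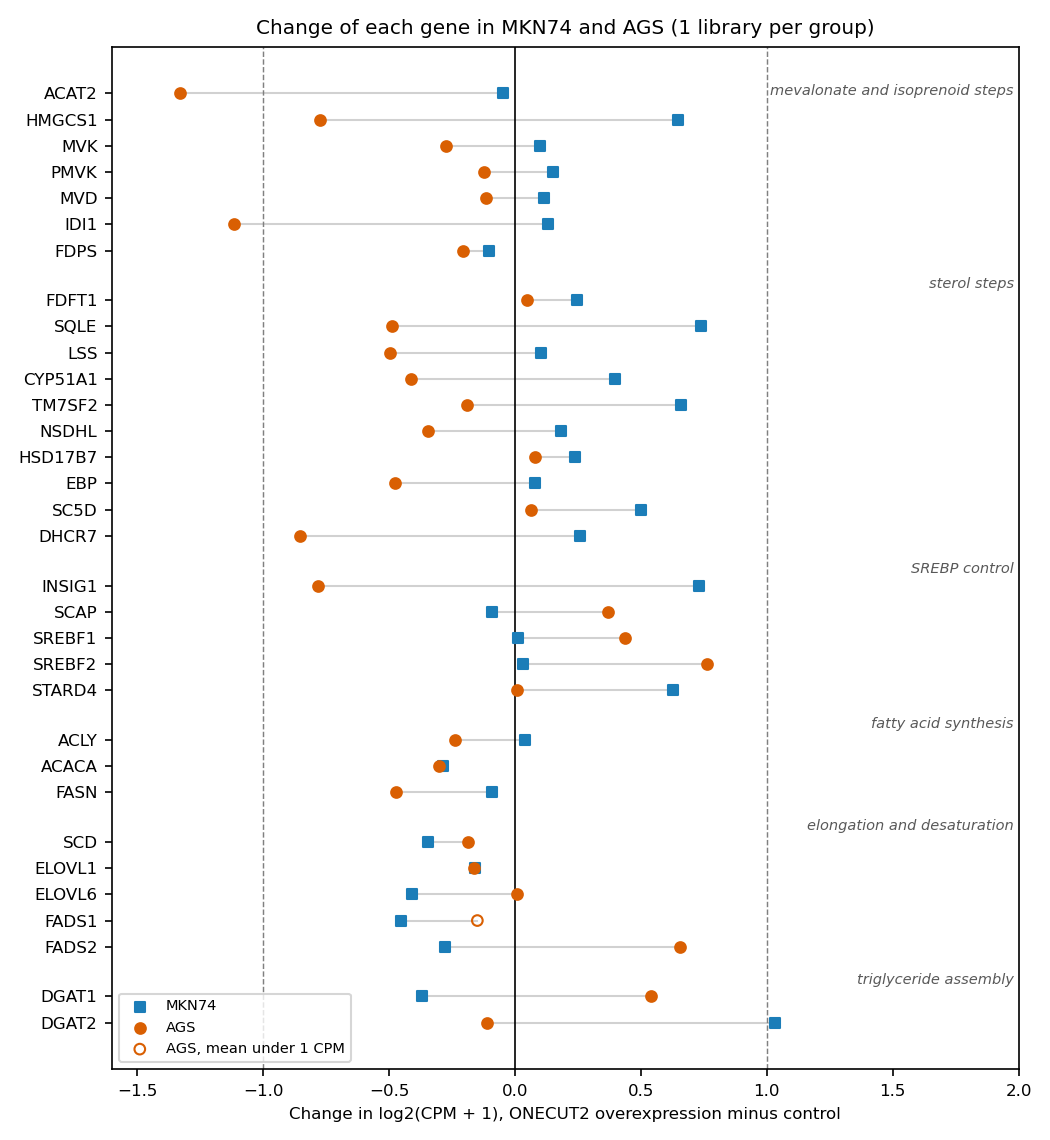
Change of each gene in log2(CPM + 1), ONECUT2 overexpression minus control, in MKN74 (blue squares) and AGS (orange circles, open where the mean is under 1 CPM), grouped by role. Dashed lines mark 2-fold. Cholesterol synthesis genes sit mostly right of 0 in MKN74 and left of 0 in AGS, while SCAP, SREBF1 and SREBF2 have the opposite order.

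Of the mevalonate and isoprenoid genes, all 7 were below 0 in AGS, as were 50.3% of all genes. Their median change was -0.27, beside -0.38 for the 10 sterol steps. ACAT2, the cytosolic thiolase that joins acetyl-CoA units, had 51.7 CPM in MKN74 overexpression against 53.5 in its control, and 11.1 CPM in AGS overexpression against 29.5. Its ratio was 0.967 (0.912 to 1.03) in MKN74 and 0.377 (0.339 to 0.420) in AGS, the lowest of all members. IDI1, the isopentenyl diphosphate isomerase, had 55.6 CPM in MKN74 overexpression against 50.7 in control, and 16.3 CPM in AGS overexpression against 36.6, where its ratio was 0.447 (0.408 to 0.489). ACAT2 and IDI1 were thus the 2 members at least 2-fold lower in AGS, with changes of -1.33 and -1.11, and 0 of the 31 members measured there were 2-fold higher on the log2(CPM + 1) scale. On the ratio of CPM, which carries no pseudocount, FADS2 stood at 2.31 there, from 78 and 32 reads. Its interval of 1.51 to 3.61 reaches under 2-fold, and it passed the 1 CPM filter in AGS only through its overexpression library. Of all genes in AGS, 0.728% were at least 2-fold lower and 4.19% at least 2-fold higher.

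HMGCS1, which makes HMG-CoA, had 134 CPM in MKN74 overexpression against 85.4 in its control, and 55.4 CPM in AGS overexpression against 95.5. The controls were close to each other and the overexpression libraries lay on either side of both. Its changes were 0.65 in MKN74 and -0.77 in AGS, with ratios of 1.57 (1.51 to 1.64) and 0.580 (0.551 to 0.611). The kinases and the decarboxylase that follow moved less. MVK, PMVK and MVD had changes of 0.099, 0.15 and 0.11 in MKN74 and of -0.27, -0.12 and -0.11 in AGS. FDPS, which makes farnesyl diphosphate, was lower in both, at -0.11 in MKN74 and -0.21 in AGS.

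From squalene on, all 10 sterol genes had a change above 0 in MKN74, beside 46.8% of all genes. In AGS 7 of 10 were below 0, beside 50.3% of all genes. SQLE, the squalene epoxidase and a slow step of the pathway, had 173 CPM in MKN74 overexpression against 103 in control, and 39.4 CPM in AGS overexpression against 55.7. Its changes were 0.74 and -0.49, with ratios of 1.67 (1.61 to 1.74) in MKN74 and 0.707 (0.663 to 0.753) in AGS. CYP51A1, the lanosterol demethylase, had 69.2 CPM in MKN74 overexpression against 52.3 in control, and 44.1 CPM in AGS overexpression against 59.1, with changes of 0.40 and -0.41. For both genes each line's overexpression library lay on opposite sides of its control.

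DHCR7, which catalyses the last step to cholesterol, had 95.4 CPM in MKN74 overexpression against 79.6 in control, and 28.03 CPM in AGS overexpression against 51.4. Its change in AGS, -0.85, was the largest decrease among the sterol steps, with a ratio of 0.545 (0.507 to 0.585), and its change in MKN74 was 0.26. TM7SF2, a sterol reductase, was higher in MKN74 overexpression at 32.2 CPM against 20.05 in control (change 0.66, ratio 1.61, 1.48 to 1.75), and stood at 35.7 against 40.8 CPM in AGS (change -0.19). LSS, the lanosterol synthase, EBP, a sterol isomerase, and NSDHL, a demethylating enzyme, had changes of 0.10, 0.080 and 0.18 in MKN74 and of -0.50, -0.47 and -0.35 in AGS. The 3 sterol genes above 0 in both lines were SC5D, a desaturase (0.50 in MKN74 and 0.062 in AGS), FDFT1, the squalene synthase (0.25 and 0.049), and HSD17B7, a ketoreductase (0.24 and 0.078).

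**Figure D2:**
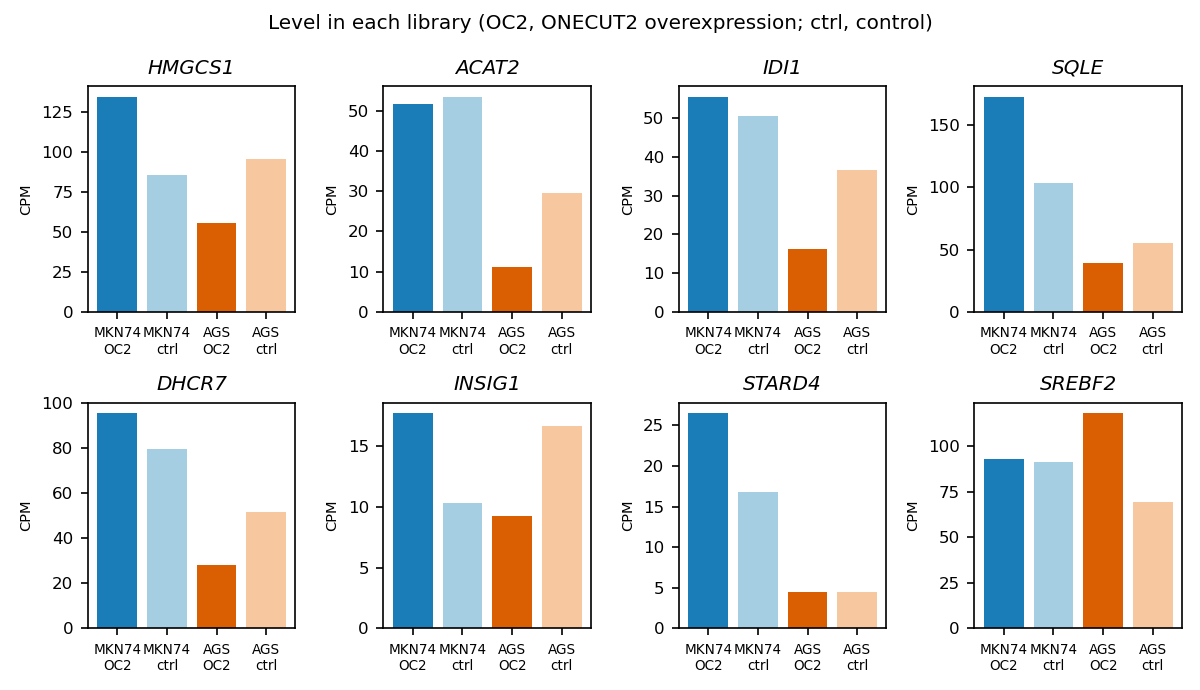
Level in CPM of 8 genes in each library, 1 bar per library, with MKN74 in blue, AGS in orange, overexpression in the dark shade and control in the light one. HMGCS1, SQLE and INSIG1 are higher with overexpression in MKN74 and lower in AGS. With overexpression ACAT2, IDI1 and DHCR7 are lower in AGS, while in MKN74 ACAT2 is slightly lower and IDI1 and DHCR7 are somewhat higher. SREBF2 is higher with overexpression in AGS.

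Among the SREBP control genes, INSIG1 followed the enzymes. It had 17.7 CPM in MKN74 overexpression against 10.3 in control, and 9.27 CPM in AGS overexpression against 16.7. Its changes of 0.73 and -0.78 lay 1.51 apart, the largest difference between the lines among the members, with ratios of 1.72 (1.53 to 1.94) and 0.557 (0.491 to 0.631). STARD4, a sterol carrier and SREBP target, had 26.5 CPM in MKN74 overexpression against 16.8 in control, where the change was 0.63 (ratio 1.58, interval 1.43 to 1.73). In AGS it had 4.51 CPM with overexpression and 4.49 without, a change of 0.0060. After quantile normalization the STARD4 change in MKN74 was 0.58, just under 1.5-fold.

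The transcription factors and their escort did not follow their targets. SREBF2, the gene of SREBP-2, had 93.2 CPM in MKN74 overexpression against 91.1 in control, and 118 CPM in AGS overexpression against 69.2. Its change was 0.033 in MKN74, with a ratio of 1.02 (0.979 to 1.07), and 0.76 in AGS, with a ratio of 1.71 (1.63 to 1.79). SREBF2 was thus higher in the AGS library in which 14 of 17 cholesterol synthesis genes were lower. SREBF1, the gene of SREBP-1, had 72.3 CPM in MKN74 overexpression against 71.8 in control, and 103 CPM in AGS overexpression against 75.7, a change of 0.44. SCAP, the escort protein, had 28.7 against 30.6 CPM in MKN74, and 86.8 CPM in AGS overexpression against 66.98 in control, a change of 0.37. These are transcript levels, and the processing of SREBP proteins was not measured.

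Counted at 1.5-fold, 6 of 32 members were higher in MKN74 overexpression and 0 were lower, whereas 6.61% of all genes were higher and 4.46% lower by that rule. The 6 were SQLE, INSIG1, TM7SF2, HMGCS1, STARD4 and DGAT2. In AGS, 5 of 31 members were at least 1.5-fold lower and 2 higher, beside 5.73% and 11.2% of all genes. The 5 were ACAT2, IDI1, DHCR7, INSIG1 and HMGCS1, and the 2 were SREBF2 and FADS2. FADS2 passed the 1 CPM filter in AGS only through its overexpression library, so its place in this count is a description. Its change there was under 1.5-fold with a pseudocount of 2 (0.45) and after quantile normalization (0.40). HMGCS1 and INSIG1 were past 1.5-fold in both lines, each in opposite directions. With each change at least 0.3 in size, 4 members were higher in MKN74 and lower in AGS (HMGCS1, SQLE, CYP51A1, INSIG1), as were 2.09% of all genes, and 1 was lower in MKN74 and higher in AGS (DGAT1), as were 3.80% of all genes.

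**Figure D3:**
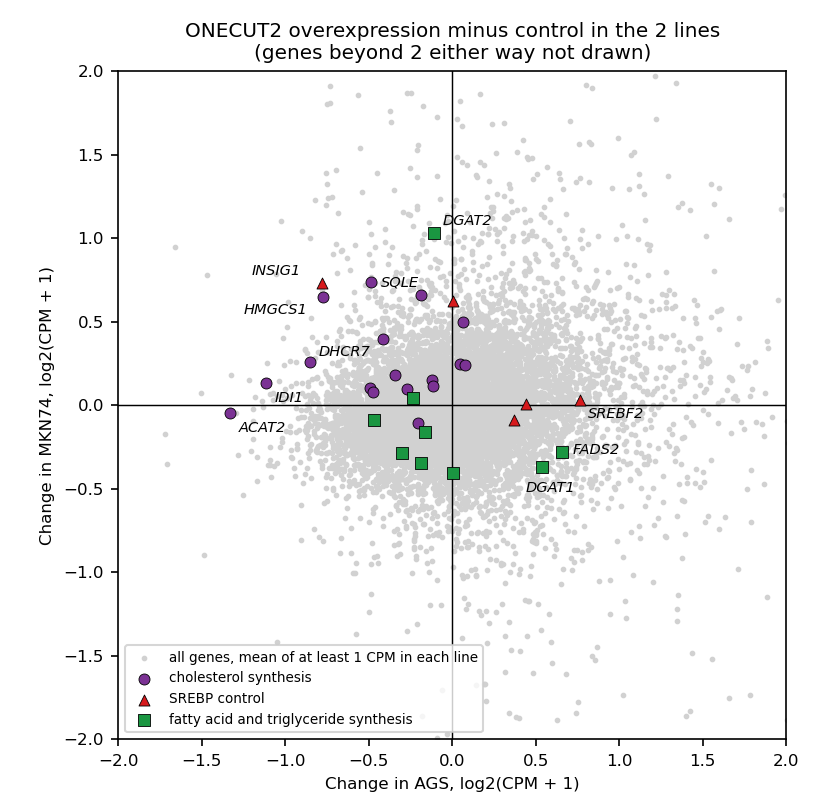
Change in MKN74 (vertical) against change in AGS (horizontal), ONECUT2 overexpression minus control in log2(CPM + 1), for every gene that passed the 1 CPM filter in MKN74 and in AGS (grey) and for the members (purple circles for cholesterol synthesis, red triangles for SREBP control, green squares for fatty acid and triglyceride synthesis). Cholesterol synthesis genes lie mainly in the upper left, and SREBF2 lies to the right of 0 at a height near 0. Genes beyond 2 on either axis are not drawn.

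The upstream sequences of 5 of these genes are shown because HMGCS1, INSIG1 and CYP51A1 moved in opposite directions in the lines, DHCR7 had the largest decrease of the sterol steps, and SREBF2 moved against its targets. They are the 250 bases before the RefSeq start in GRCh38.p14, 5′ to 3′ on the strand of the gene. HMGCS1 lies at chr5:43313413-43313662 (minus strand), INSIG1 at chr7:155297628-155297877 (plus strand), CYP51A1 at chr7:92134478-92134727 (minus strand), DHCR7 at chr11:71448394-71448643 (minus strand) and SREBF2 at chr22:41832855-41833104 (plus strand). Capitals mark CCAAT or its reverse complement ATTGG (the NF-Y box), TCACNCCAC (a form of the sterol regulatory element), and ATCGAT or ATTGAT on either strand (ONECUT core motifs).
HMGCS1: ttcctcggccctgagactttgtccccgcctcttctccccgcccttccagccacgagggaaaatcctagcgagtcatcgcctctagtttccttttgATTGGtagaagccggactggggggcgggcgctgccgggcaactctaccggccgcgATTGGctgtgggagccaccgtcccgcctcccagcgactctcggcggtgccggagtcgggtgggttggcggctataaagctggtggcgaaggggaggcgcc
INSIG1: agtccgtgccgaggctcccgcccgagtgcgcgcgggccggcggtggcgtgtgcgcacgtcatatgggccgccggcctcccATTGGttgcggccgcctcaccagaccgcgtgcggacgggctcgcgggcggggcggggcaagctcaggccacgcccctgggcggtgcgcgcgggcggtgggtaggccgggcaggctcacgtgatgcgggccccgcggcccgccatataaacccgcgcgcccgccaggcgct
CYP51A1: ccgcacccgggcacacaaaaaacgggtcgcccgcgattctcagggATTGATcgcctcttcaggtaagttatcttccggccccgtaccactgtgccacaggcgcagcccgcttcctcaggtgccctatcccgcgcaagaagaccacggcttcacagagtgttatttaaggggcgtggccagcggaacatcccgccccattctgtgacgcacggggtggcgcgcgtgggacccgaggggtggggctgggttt
DHCR7: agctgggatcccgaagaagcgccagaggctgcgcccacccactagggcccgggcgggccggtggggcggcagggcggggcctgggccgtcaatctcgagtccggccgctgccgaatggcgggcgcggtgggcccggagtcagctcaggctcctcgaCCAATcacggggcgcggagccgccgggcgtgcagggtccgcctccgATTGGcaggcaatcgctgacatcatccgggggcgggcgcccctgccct
SREBF2: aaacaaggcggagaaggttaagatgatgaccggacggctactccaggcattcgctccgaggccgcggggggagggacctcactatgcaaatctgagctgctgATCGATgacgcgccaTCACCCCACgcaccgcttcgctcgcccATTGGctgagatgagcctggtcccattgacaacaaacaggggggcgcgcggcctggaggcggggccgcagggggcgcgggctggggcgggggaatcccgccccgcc

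Promoters from 250 bases before to 50 after the start were found for 26 of 32 members in the RefSeq table. Those of ACAT2, FDFT1, SQLE, FASN, DGAT1 and DGAT2 were not used here. On either strand, CCAAT occurred in 17 of 26 member promoters (65.4%), among them 11 of 14 of cholesterol synthesis genes, and in 36.5% of the promoters of the 9771 listed genes that have one. The SP1 box GGGCGG occurred in 24 of 26 (92.3%), beside 70.03% of listed genes, and the E-box CACGTG in 4 of 26 (15.4%), beside 9.92%. The form TCACNCCAC of the sterol regulatory element was found in SREBF2 alone of the 26, at 133 bases before the start, and in 1.10% of listed genes. Other forms of the element were not searched for, so a promoter without this string may still hold one. The ONECUT core ATCGAT was also found in SREBF2 alone, 148 bases before the start, and in 0.819% of listed genes, while ATTGAT was found in CYP51A1 alone, 205 bases before the start, and in 2.99% of listed genes. In the 26 promoters 1 pair of different motifs overlapped, in ELOVL1. A match is a description of the letters only, and no binding was measured here.

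The fatty acid and triglyceride genes differed from the cholesterol genes in MKN74. Of the 10 measured there, 8 had a change below 0, with a median of -0.28. Among all 11914 genes tested there, 6334 were below 0, with a median of -0.020. In AGS 6 of 9 were below 0, with a median of -0.16, beside 50.3% of all 11675 genes tested and a median of -0.0034. The 3 fatty acid synthesis enzymes were below 0 in AGS. FASN, the fatty acid synthase, had 394 CPM in MKN74 overexpression against 419 in control (change -0.090), and 247 CPM in AGS overexpression against 342 (change -0.47, ratio 0.720, 0.702 to 0.739). ACACA, the acetyl-CoA carboxylase that commits carbon to fatty acids, had similar changes in both lines, -0.28 in MKN74 and -0.30 in AGS. ACLY, which makes cytosolic acetyl-CoA from citrate, had changes of 0.040 and -0.24.

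Desaturases and elongases were lower in MKN74 overexpression at all 5 members measured, beside 6334 of all 11914 genes. SCD, the stearoyl-CoA desaturase, had 793 CPM in MKN74 overexpression against 1008 in control (change -0.35, ratio 0.787, 0.776 to 0.798), and 565 CPM in AGS overexpression against 644 (change -0.19). ELOVL1, an elongase of very long chains, had changes of -0.16 in both lines. ELOVL6, which extends palmitate, had 5.54 CPM in MKN74 overexpression against 7.68 in control (change -0.41), and 57.9 CPM in AGS overexpression against 57.6.

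The polyunsaturated fatty acid desaturases were low in AGS. FADS1 had 12.5 CPM in MKN74 overexpression against 17.4 in control, a change of -0.45. In AGS it had 0.231 CPM with overexpression and 0.366 without, from 10 and 15 reads, and was not counted there. FADS2 had 3.49 CPM in MKN74 overexpression against 4.45 in control, and 1.80 CPM in AGS overexpression against 0.780, a change of 0.66 from 78 and 32 reads. FADS2 passed the 1 CPM filter in AGS only through its overexpression library. Its ratio of CPM there was 2.31 (1.51 to 3.61). Its change was 1.11 with a pseudocount of 0.1, past 2-fold, but 0.45 with a pseudocount of 2 and 0.40 after quantile normalization, both under 1.5-fold.

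The enzymes of the last step to triglyceride, which are unrelated proteins with the same activity, had opposite patterns. DGAT1 had 18.9 CPM in MKN74 overexpression against 24.6 in control, and 28.4 CPM in AGS overexpression against 19.2, with changes of -0.37 and 0.54. DGAT2 had 6.52 CPM in MKN74 overexpression against 2.68 in control, and 14.2 CPM in AGS overexpression against 15.4. DGAT2 was the 1 of 32 members at least 2-fold higher in MKN74, where 3.26% of all genes were at least 2-fold higher and 1.35% at least 2-fold lower. Its change was 1.03 with a ratio of 2.43 (1.95 to 3.05) from 299 and 112 reads, and it was under 2-fold with a pseudocount of 2 and after quantile normalization. A filter of 5 CPM removes it.

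Taking the lines as replicates of overexpression, limma called 0 of 32 members and 0 of 12340 genes (0%) for a change common to both lines at a Benjamini-Hochberg adjusted p of 0.05. At an unadjusted p under 0.05 there were 0 members and 566 genes in limma, and 0 members and 902 genes with voom weights. The lowest unadjusted limma p among the members was 0.110, for ACAT2, whose adjusted p was 0.800. The fit has 1 residual degree of freedom, which is the difference between the lines in the overexpression change. Genes with opposite changes, such as HMGCS1, SQLE and INSIG1, thus have small common changes (-0.064, 0.12 and -0.026) and a large residual. The fit could hardly call them. A p that misses the threshold does not show that a gene did not change.

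The lines themselves differed at 12 of 32 members in the same limma fit, over both arms, and at 5330 of all 12340 genes. In MKN74, 9 members were higher than in AGS and 3 were lower, beside 20.9% and 22.3% of all genes. FADS1 is among the 9, but it passed the 1 CPM filter only through the MKN74 libraries, so its difference is a description. It had 12.5 and 17.4 CPM in MKN74 against 0.231 and 0.366 CPM in AGS, a log2 difference of 3.60. ELOVL6 was lower in MKN74 by 2.96 (log2 difference -2.96, SE 0.20, limma adjusted p = 0.00153), at 5.54 and 7.68 CPM against 57.9 and 57.6 CPM. ELOVL6 kept a limma adjusted p under 0.05 whichever library was left out, between 0.0159 and 0.0263.

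STARD4 was higher in MKN74 by 2.01 (SE 0.24, limma adjusted p = 0.00596), MVK by 1.45 (adjusted p = 0.00943) and HSD17B7 by 1.40 (adjusted p = 0.0102). SQLE, ACAT2, DHCR7, FADS2 and SC5D were higher in MKN74 by 1.49, 1.48, 1.18, 1.15 and 0.99, with limma adjusted p between 0.0178 and 0.0487. SCAP and DGAT2 were lower in MKN74, with log2 differences of -1.34 (adjusted p = 0.00906) and -1.59 (adjusted p = 0.0233). For all 12 both MKN74 libraries lay on the same side of both AGS libraries. Each of the 10 members other than FADS1 and ELOVL6 missed the threshold when at least 1 library was left out, SQLE and SC5D whichever it was. FADS2 also missed it in 3 of 8 other settings, with limma adjusted p between 0.0340 and 0.0529 over the 8. ACAT2 and DHCR7 each missed it in 1 of 9. The 2 libraries of a line come from different arms, and the lines are 1 pair of lines, so the test describes these lines.

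**Figure D4:**
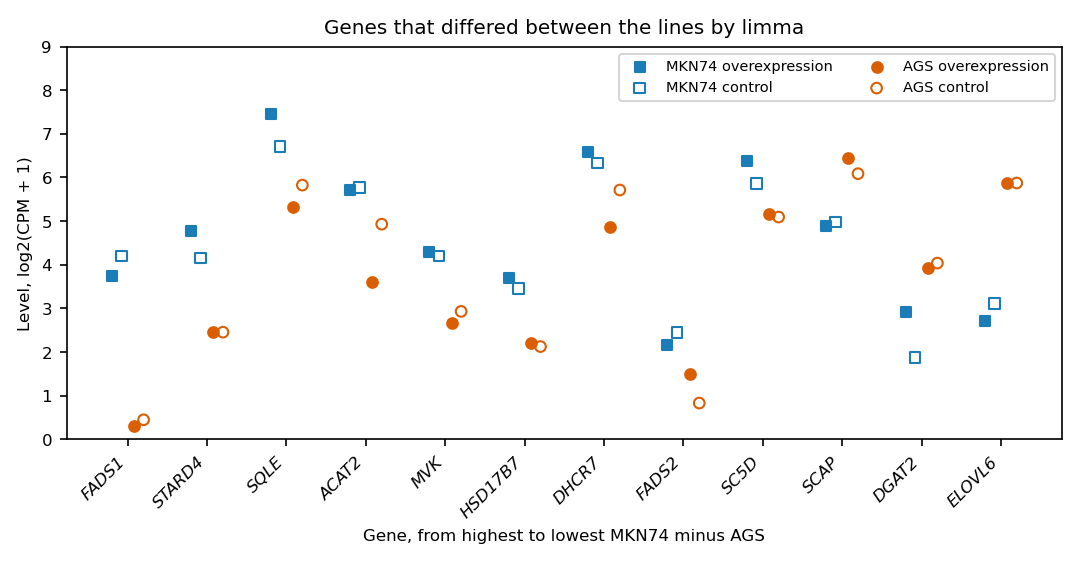
Level in log2(CPM + 1) of the 12 members that limma called between the lines, from the highest to the lowest MKN74 minus AGS, with MKN74 as blue squares, AGS as orange circles, overexpression filled and control open. Both MKN74 libraries lie on one side of both AGS libraries for each gene.

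Cholesterol genes were higher in MKN74 than in AGS more often in the overexpression libraries than in the control libraries. MKN74 was above AGS at 14 of 17 in the overexpression libraries, with a median log2 difference of 0.96, and at 9 of 17 in the controls, with a median of 0.070. Among all 12340 genes the shares were 51.1% and 50.6%, with medians of 0.025 and 0.016. Differences of opposite sign cancel in a median, so these medians do not measure how close the lines were. The MKN74 minus AGS log2 difference of TM7SF2 was -0.99 in the controls and -0.14 in the overexpression libraries. That of SQLE was 0.88 in the controls and 2.11 in the overexpression libraries. All of these values are another view of the same changes and not further evidence.

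Of 65 other genes of sterol and fatty acid metabolism, 59 had a row and 56 were measured in each line. In MKN74, 1 was at least 2-fold higher and 0 were lower, beside 3.26% and 1.35% of all genes. At 1.5-fold 3 were higher and 4 lower there, beside 6.61% and 4.46% of all genes. Among the higher were MYLIP, a regulator of lipoprotein uptake (0.95), and LIPA, the lysosomal acid lipase (0.73). The 4 lower by that rule were ABCG1, a sterol exporter (-0.82), HACD2, an enzyme of chain elongation (-0.73), SCARB1, a lipoprotein receptor (-0.62), and SCD5, a desaturase (-0.61). The medians over the 56 were 0.0044 in MKN74 and -0.026 in AGS.

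Among the 56, 2 passed 2-fold upwards in AGS and 1 downwards, beside 4.19% and 0.728% of all genes. At 1.5-fold 4 were higher and 3 lower, beside 11.2% and 5.73%. FADS3, a desaturase family member, had 14.1 CPM with overexpression against 5.56 without (change 1.21). MLXIPL, the carbohydrate-response factor ChREBP, had 2.66 CPM against 0.829 (change 1.00), and passed the filter only through its overexpression library. SOAT1, which esterifies cholesterol, had 17.6 CPM with overexpression against 38.9 without (change -1.10), and its change in MKN74 was -0.36. Others past 1.5-fold were AGPAT4, of phosphatidic acid synthesis (0.76), NR1H2, the gene of LXR-beta (0.72), and ELOVL3, an elongase (-0.69). ELOVL3 had 0.902 CPM with overexpression against 2.07 without, and passed the filter only through its control library. limma called 0 of 59 for a common overexpression change, with 1 at an unadjusted p under 0.05, and called 8 higher and 15 lower in MKN74 than in AGS, beside 20.9% and 22.3% of all genes.

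The strand setting of the read counting is not given, so overlapping genes cannot be told apart. In the RefSeq table the spans of 7 of 32 members overlap another gene with a row. ACAT2 overlaps TCP1, a chaperonin subunit, which had a change of -0.028 in MKN74 and -0.80 in AGS, and SOD2, with -0.26 and -0.38. IDI1 overlaps WDR37 (-0.27 in MKN74 and 0.30 in AGS), MVK overlaps MMAB (0.24 and -0.084), SREBF1 overlaps RAI1 (-0.26 and -0.061), DGAT1 overlaps HSF1 (-0.090 and 0.026), and FADS1 and FADS2 overlap each other. HSD17B7 has a near-identical copy, HSD17B7P2, listed at 0.439 to 1.42 CPM. The part of these neighbours in the members' values was not tested.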

How the data were processed

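RNA libraries of MKN74 and AGS were grouped by the sample names. The kit was Illumina TruSeq RNA, per the labels' protocols. STAR 2.5.1, edgeR 3.12.1, Bowtie2 2.1.0, HOMER 4.9.1, CASAVA 1.7 and the build hg19 are listed in the submitters' processing notes without their roles. The sources used here do not give the read counter.

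The authors deposited 1 table of log2 values with 13109 rows, which by the values are log2(CPM + 1). Raising 2 to a value and subtracting 1 gave whole multiples of a fixed step, at most 3.05e-08 of a read from whole, so reads were recovered (36097456 to 38110453 per library). They made up 83.1% to 88.1% of the total that 1 read's worth implies. A count of 0 allows up to 3 reads, or 0.0654 to 0.0731 CPM. A set of 18 rows named by dates, with 0.218% to 0.239% of reads, was left out.

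Within a line, genes averaging 1 CPM or more over its libraries were counted at 2-fold and 1.5-fold, and ratios had exact (Clopper-Pearson, conditional binomial) intervals. limma with a mean trend was fitted on line and overexpression over all genes averaging 1 CPM or more, adjusted by Benjamini-Hochberg at 0.05. The cell line pairs the libraries. The limma step was tried on simulated data in which a changed gene had the same overexpression change in both lines. That trial does not cover genes with opposite changes in the lines. Nothing says that the libraries came from separate cultures beyond the groups. The 1 residual degree of freedom is the difference between the lines in the overexpression change. The p-values rest on that difference and on its size over all genes, and not on a spread between cultures.

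Described in full were members past 1.5-fold in a line, opposite in sign with each change at least 0.3, or called by limma, and 8 fixed members (SREBF1, SREBF2, INSIG1, SCAP, HMGCS1, SQLE, FASN, SCD). Other pathway genes were named past 1.5-fold, at most 8 per line. Some results for single pathway genes are not reported here. The members and lists were chosen with earlier results of these data known. Symbols of all 32 members were found in the RefSeq gene table (GRCh38.p14), which was used for names and neighbours. Alternatives were other pseudocounts (2 and 0.1), filters, scalings (common median, quantile, TMM), moderation, voom, and terms left out; leaving out each library was added after seeing the data. The fits used limma 3.58.1 in R 4.3.3; all else used Python 3.11.15 with scipy 1.17.1, numpy 2.4.6 and pandas 2.3.3, and figures were drawn with matplotlib 3.10.9.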

Additional observations from a re-analysis of the deposited data

Results flagged for a closer look

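For 5 members the changes in the lines had opposite signs, each at least 0.3 in size. Of the 31 members measured in both lines, 4 were higher in MKN74 and lower in AGS, beside 2.09% of all genes. The reverse held for 1, beside 3.80% of all genes. The differences between the lines were not tested, since each line has 1 library per group. The MKN74 change minus the AGS change was 1.51 for INSIG1, 1.42 for HMGCS1, 1.23 for SQLE, 0.81 for CYP51A1 and -0.91 for DGAT1.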

How the results depend on the processing

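With a pseudocount of 0.1 or 2, no filter or a filter of 5 CPM, a common median, quantile normalization and TMM factors, the median change of the cholesterol synthesis members ranged from 0.17 to 0.20 in MKN74 and from -0.45 to -0.33 in AGS, and 12 or 13 of those members were higher in MKN74 and lower in AGS. Of 436 recomputed changes of single members 433 stayed on the same side of 1.5-fold, 3 fell under it and 0 changed sign among those past it. The 436 include the filter settings, which do not alter a single change, so those repeats could not differ. Among changes under 1.5-fold, quantile normalization reversed the sign of HSD17B7 in AGS (0.078 to -0.17) and STARD4 in AGS (0.0060 to -0.21). No scaling moved the median of all genes by over 0.1. Counts of members past the fold were small and moved. In MKN74 the members higher numbered 0 with a pseudocount of 2, with 5 CPM and with quantile normalization, and 6 at 1.5-fold, against 1 as reported. In AGS those higher numbered 1 with a pseudocount of 0.1 and 2 at 1.5-fold, against 0, and those lower numbered 5 at 1.5-fold, against 2. FADS2, which passed the AGS filter only through its overexpression library, is in these counts of higher members. Of the other pathway genes in MKN74, 2 were higher with a pseudocount of 0.1 and 1 was lower with quantile normalization. In AGS, 1 was higher with a pseudocount of 2, with 5 CPM and with quantile normalization, and 2 were lower with a pseudocount of 0.1.

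Without each library in turn, fitted on line alone, limma called 2 to 8 members higher and 1 to 2 lower in MKN74 than in AGS, against 9 and 3. Each such fit assumes that the lone library varies like the others. It was 5 and 2 without AGS overexpression, 8 and 2 without the AGS control, 2 and 2 without MKN74 overexpression, and 3 and 1 without the MKN74 control. With the replicate block (the line) left out, limma called 0 members for overexpression, as with it. For overexpression a fit on line and overexpression with 1 library left out has no residual degree of freedom. The count-model alternative was not run, since the deposited unit is log2. Depth limits FADS1 in AGS, with 10 and 15 reads.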
